A study of Homo sapiens with 3 samples.

Results

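This account follows 10 genes for enzymes that make asparagine, proline and cysteine or work at steps next to those routes. The genes are ASNS, CBS, CTH, PCK2, PYCR1, ALDH18A1, GPT2, BCAT1, GOT1 and OAT. They were picked by gene symbol, and the differences of these arrays from the control were already known when the list was drawn up, so every value below describes the arrays and none is a test. The platform annotation gave 9 of the 10 genes a probe set of their own, 17 probe sets in all, among 19775 genes on the array. All 9 were measured, which means a signal above a floor of 61.4 on at least 1 array, as for 12351 genes overall. GPT2 was not analysed here.

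The RNA came from the human cell line NCI-H1650, established from a lung adenocarcinoma, and was hybridised to 3 Affymetrix arrays of 54675 probe sets. One array held the control cells. One held cells given 40 μM colossolactone H, a triterpenoid of the fungus Ganoderma colossum, for 12 h, and one held cells given the same dose for 24 h. The labels give neither a vehicle nor a collection time for the control, and all cells shared a medium supplemented with L-glutamine and non-essential amino acids. Each group was 1 array of 1 cell line, so there is no replicate spread, no standard error and no p-value, and the number of arrays limits the precision. Both treated arrays were set against the same control array.

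Asparagine synthetase makes asparagine from aspartate and glutamine, and proline is built from glutamate or ornithine through pyrroline-5-carboxylate. Cysteine is made by transsulfuration, in which homocysteine and serine are joined to cystathionine and then cleaved. Several of these genes are known targets of ATF4, the transcription factor translated when amino acids run short, when proteins misfold in the reticulum or under oxidative stress. ATF4 works as a dimer with C/EBP family partners at a short element, whose best-known example lies in the ASNS promoter.

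The core of that element, TGATGNAA on either strand, was looked for from 250 bases before to 50 bases after the RefSeq start sites, because ATF4 targets are among these genes. The RefSeq promoters, on GRCh38.p14, gave 15 windows for 8 of the 10 genes. The 3 windows with a match are shown as 100 bases on the gene's own strand, 5′ to 3′, with the match in capitals. The ASNS stretch is chr7:97872424-97872523, minus strand, and its match begins 68 bases before the start site. The GOT1 stretch is chr10:99430770-99430869, minus strand, with the match in the opposite orientation beginning 198 bases before the start. The BCAT1 stretch is chr12:24949102-24949201, minus strand, with the match beginning 48 bases before the start.
ASNS: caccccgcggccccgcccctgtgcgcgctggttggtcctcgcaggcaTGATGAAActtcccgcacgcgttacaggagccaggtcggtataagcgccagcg
GOT1: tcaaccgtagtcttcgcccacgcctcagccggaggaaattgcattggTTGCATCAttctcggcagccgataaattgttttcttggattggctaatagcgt
BCAT1: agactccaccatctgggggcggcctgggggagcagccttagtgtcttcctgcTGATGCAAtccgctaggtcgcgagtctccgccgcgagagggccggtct

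Over all promoters given, 3.62% of 35116 windows held the core, and 4.46% of 27305 genes had it in at least 1 window. BCAT1 had 5 windows and ASNS 2, so the number of windows differed between genes. The windows of CBS, CTH, PCK2, ALDH18A1 and OAT did not hold these letters. Among the 286 measured genes with the core, 8 (2.80%) were 2-fold or more higher at 12 h and 6 (2.10%) at 24 h. Among the 9771 measured genes with windows but no core, the shares were 0.348% and 0.542%. The shares 2-fold lower were 0.350% at both times with the core, and 0.368% and 0.553% without it. Median log2 differences were 0.051 and 0.0096 with the core, and 0.0055 and 0 without it. ASNS is one of the genes with the core. These few genes and shares are descriptions of a letter match, not of binding.

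At 12 h most of the enzymes were above the control, with 7 of 9 higher, where 50.2% of all measured genes were higher. ASNS, CBS and PCK2 were 2-fold or more higher, where 0.445% of all measured genes were, and no enzyme was 2-fold lower, where 0.437% of all genes were. The median log2 difference of the 9 genes was 0.56 against 0.00 for all measured genes. At 24 h all 9 were higher, where 48.8% of all measured genes were. The same 3 were 2-fold higher, where 0.591% of all genes were, none was 2-fold lower, where 0.64% were, and the median was 0.60 against 0.00 for all genes. These shares stand beside a list picked with the values known, so nothing is read from them. OAT at 24 h was at 0.0063, and turned to -0.050 with quantile normalization and -0.01 with cyclic loess.

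**Figure D1:**
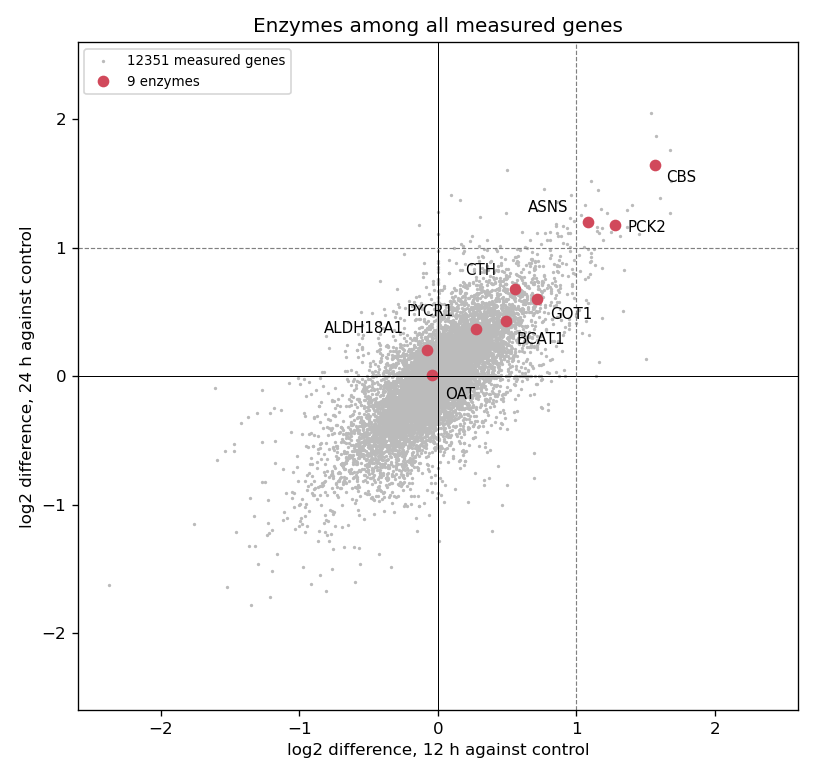
Log2 difference from the control at 12 h (horizontal) and 24 h (vertical) for 12351 measured genes (grey) and the 9 enzymes (red), with dashed lines at 2-fold. CBS, ASNS and PCK2 lie beyond both lines, and OAT lies near the origin. Both axes use the same control array.

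ASNS (Entrez gene 440), the asparagine synthetase, had signals of 4826 in the control, then 10238 at 12 h and 11073 at 24 h on its bright probe set 205047_s_at, where _s in a name marks probes that several transcripts share. Both treated arrays were thus higher, by 2.12-fold and 2.29-fold, which were ranks 42 and 29 from the top among all measured genes. The second ASNS probe set, 241082_at, was dim, with 8.6 in the control, below the floor, and 70.1 and 64 after treatment. Set against the floor it was at least 1.14-fold and 1.04-fold higher, so it pointed the same way and could not show the size. The RefSeq table lists 5 ASNS pseudogenes, and whether they share signal with these probe sets was not tested.

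GOT1 (Entrez gene 2805), the cytosolic aspartate aminotransferase, interconverts aspartate, the precursor of asparagine, with oxaloacetate. It had signals of 2061 in the control, then 3377 at 12 h and 3130.4 at 24 h on its single probe set. The log2 differences were 0.71 and 0.60, or 1.64-fold and 1.52-fold, with the 12 h array the higher of the treated pair.

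CBS (Entrez gene 875), cystathionine beta-synthase, catalyses the first step of transsulfuration, and its 3 probe sets disagreed in size. Probe set 1553972_a_at read 446.8 in the control, then 1322 at 12 h and 1399 at 24 h, a difference of 2.96-fold and 3.13-fold and ranks 7 and 4 from the top among all measured genes. Probe set 212816_s_at read 650.3, 988 and 1132, or 1.52-fold and 1.74-fold. Probe set 240517_at, the dimmest of the 3 and the only one with neither _a nor _s in its name, read 113.2, 129.2 and 129.4. That was 1.14-fold at both times. All 3 were higher on both treated arrays, and only the first passed 2-fold. The first was the brightest over the 3 arrays together but not in the control, where the second was brighter, so with the probe set chosen by control signal CBS stood at 0.60 and 0.80 on the log2 scale.

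CTH (Entrez gene 1491), the gamma-lyase that releases cysteine from cystathionine, was higher on both of its probe sets. Probe set 217127_at read 543.9 in the control, then 799 at 12 h and 873 at 24 h, which gave 0.56 and 0.68 on the log2 scale. Probe set 206085_s_at read 126.4, 222 and 248, which gave 0.81 and 0.97. Neither reached 2-fold, and on both the 24 h array was the highest.

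PCK2 (Entrez gene 5106), the mitochondrial phosphoenolpyruvate carboxykinase, turns oxaloacetate into phosphoenolpyruvate. Its single probe set read 722 in the control, then 1748 at 12 h and 1631 at 24 h. The differences were 2.42-fold and 2.26-fold, ranks 17 and 33 from the top among all measured genes, and no second probe set could be compared.

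**Figure D2:**
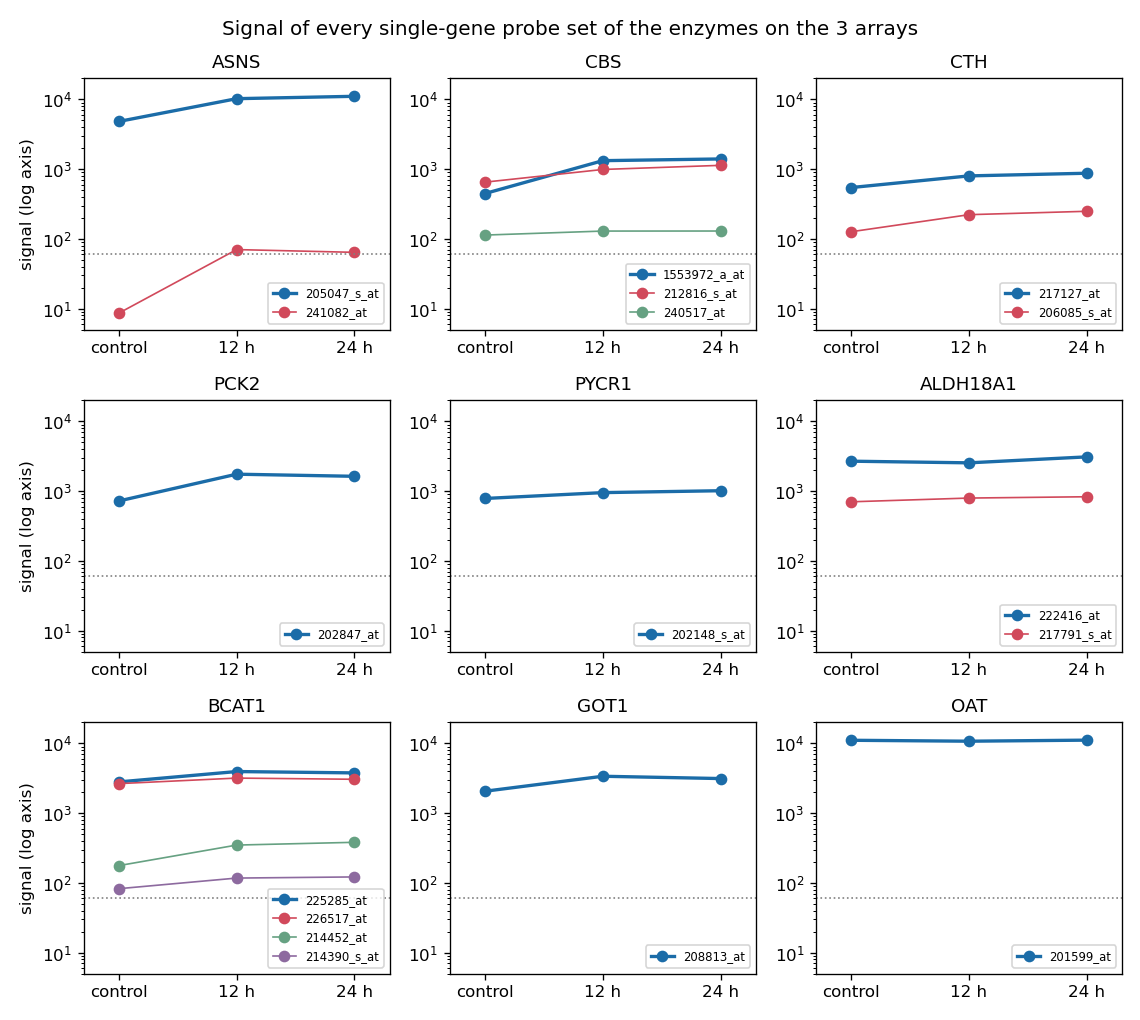
Signal of all 17 single-gene probe sets on the control, 12 h and 24 h arrays, on a log axis, 1 panel per gene. The thick line is the probe set that stands for the gene, and the dotted line is the floor of 61.4. The dim ASNS probe set starts below the floor, and the upper pair of CBS probe sets crosses between the control and 12 h.

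The proline enzymes differed less from the control. PYCR1 (Entrez gene 5831), the mitochondrial reductase of the last step, read 784 in the control, then 951 at 12 h and 1013 at 24 h on its single probe set, or 0.28 and 0.37 on the log2 scale. Both values lay inside the central 95% of all measured genes, which ran from -0.63 to 0.65 at 12 h and from -0.73 to 0.69 at 24 h. PYCR1 shared this with enzymes outside the proline route. On their brightest probe sets CTH, at 0.56 and 0.68, and BCAT1, at 0.49 and 0.43, were inside at both times. GOT1, at 0.60, was inside at 24 h only.

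ALDH18A1 (Entrez gene 5832), the synthase that commits glutamate to proline, had probe sets that disagreed in direction at 12 h. Probe set 222416_at read 2686 in the control, then 2544 at 12 h and 3097 at 24 h, and 217791_s_at read 702.5, 795 and 830. The 12 h differences were thus -0.08 and 0.18, while those at 24 h were 0.21 and 0.24. As the median over both, the gene was at 0.05 at 12 h.

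OAT (Entrez gene 4942), the ornithine aminotransferase that links ornithine with pyrroline-5-carboxylate, read 11083, 10747 and 11131 on the control, 12 h and 24 h arrays. Its signals spanned 1.04-fold between lowest and highest, the narrowest span among the brightest probe sets of the 9 genes. The RefSeq table lists 1 OAT pseudogene, and shared signal was not tested.

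BCAT1 (Entrez gene 586), the cytosolic branched-chain aminotransferase, forms glutamate with amino groups taken from leucine, isoleucine and valine. Its 4 probe sets were all higher at both times, over a wide range. The bright probe set 225285_at read 2801 in the control, then 3946 at 12 h and 3774 at 24 h, or 0.49 and 0.43. Probe set 226517_at, nearly as bright, read 2648, 3179 and 3057, or 0.26 and 0.21. The dimmer 214452_at read 176.6, 348 and 381, which gave 0.98 and 1.11, the single BCAT1 probe set past 2-fold and only at 24 h. The dimmest, 214390_s_at, read 82.4, 117 and 121.5, or 0.51 and 0.56.

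**Figure D3:**
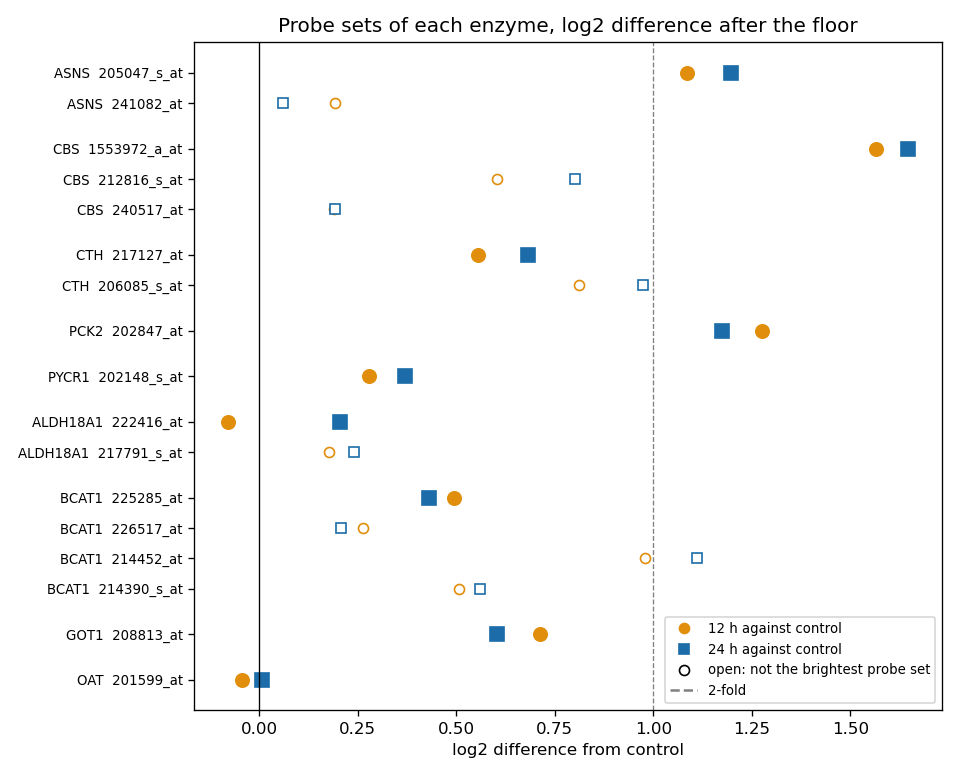
Log2 difference from the control, after the floor, for each probe set at 12 h (circles) and 24 h (squares); filled symbols mark the brightest probe set of a gene and the dashed line marks 2-fold. Of 17 probe sets, several of them from the same gene, 15 lie above 0 at 12 h and 17 at 24 h. The share over all probe sets was not computed. For 240517_at of CBS both symbols overlap at 0.19, and the open ASNS symbols are lower bounds.

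Probe sets of a gene could be compared for 5 genes and not for the 4 with 1 probe set. At 24 h all of a gene's probe sets pointed the same way in each of the 5, and at 12 h this held for all but ALDH18A1. Of the 17 probe sets, several of them from the same gene, 3 were 2-fold higher at 12 h and 4 at 24 h. The share over all probe sets of the arrays was not computed, so nothing is read from these counts. ASNS and CBS passed 2-fold on their brightest probe set; the other CBS probe sets did not pass, and the other ASNS probe set gave only a lower bound. With the median over probe sets, CBS was at 0.60 and 0.80 and ASNS, whose median takes in that bound, at 0.64 and 0.63 or more, so that by these values PCK2 alone was 2-fold higher at both times. With transcript-specific probe sets only, CBS was at 0.19 at both times and ASNS was at least 0.19 and 0.06. Transcript-specific here means a name with no letter before _at, which leaves out _a as well as _s. Whether the probe sets left out are less specific to their gene was not tested.

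Between 12 h and 24 h the enzymes differed little. Of the 9 genes 6 were higher at 24 h than at 12 h and 3 were lower, with none 2-fold apart, where 0.324% of all measured genes were, and 46.3% of all genes were higher. ALDH18A1 had the largest difference, 0.28, and GOT1 the lowest, -0.11. PCK2 and BCAT1 were also lower at 24 h, at -0.10 and -0.06. These directions come from the brightest probe sets. For BCAT1, 226517_at was lower too, at -0.06, but 214452_at and 214390_s_at were higher, at 0.13 and 0.05. ASNS was at 0.11 on its bright probe set and -0.13 on its dim one. The probe sets of CBS, CTH and ALDH18A1 pointed the same way within each gene. All 9 lay inside the central 95% of all genes in that comparison, from -0.54 to 0.49.

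Partner genes were fixed for several of the enzymes, as paralogues in another compartment or as enzymes of a linked step, and each keeps to its own probe set. GOT2, the mitochondrial aspartate aminotransferase, read 4732, 4964 and 5027, or 0.07 and 0.09. The log2 difference from the control was larger for its cytosolic paralogue GOT1, by 0.64 and 0.52, and signal levels were not compared. BCAT2, the mitochondrial branched-chain aminotransferase, was at 0.37 and 0.33, within 0.12 and 0.10 of BCAT1. PCK1, the cytosolic carboxykinase, read 1.3, 0.6 and 2.3, below the floor on all arrays, while mitochondrial PCK2 was above it on all 3.

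PYCR3, a cytosolic reductase of the same step as PYCR1, was at 0.30 at 12 h like PYCR1 at 0.28, but at -0.06 against 0.37 at 24 h. ALDH4A1, which oxidises the proline intermediate back to glutamate, was at 0.16 and -0.17. Its second, dimmer probe set read 87.1, 48.8 and 62.4, below the floor at 12 h and just above it at 24 h. Set against the floor it was at -0.50 or lower at 12 h, and it was at -0.48 at 24 h. The 12 h direction thus differed between probe sets, with signals too dim to give the size. ASNSD1, an asparagine synthetase domain protein, was at -0.09 and 0.12, so the difference from the control was larger for ASNS by 1.17 and 1.07. MPST, which moves sulfur from a cysteine product, was at 0.54 and 0.56, close to CTH. GPT, the cytosolic alanine aminotransferase, read 120.7, 143.8 and 152.6, or 0.25 and 0.34. None of the measured partners was 2-fold different from the control at either time.

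**Figure D4:**
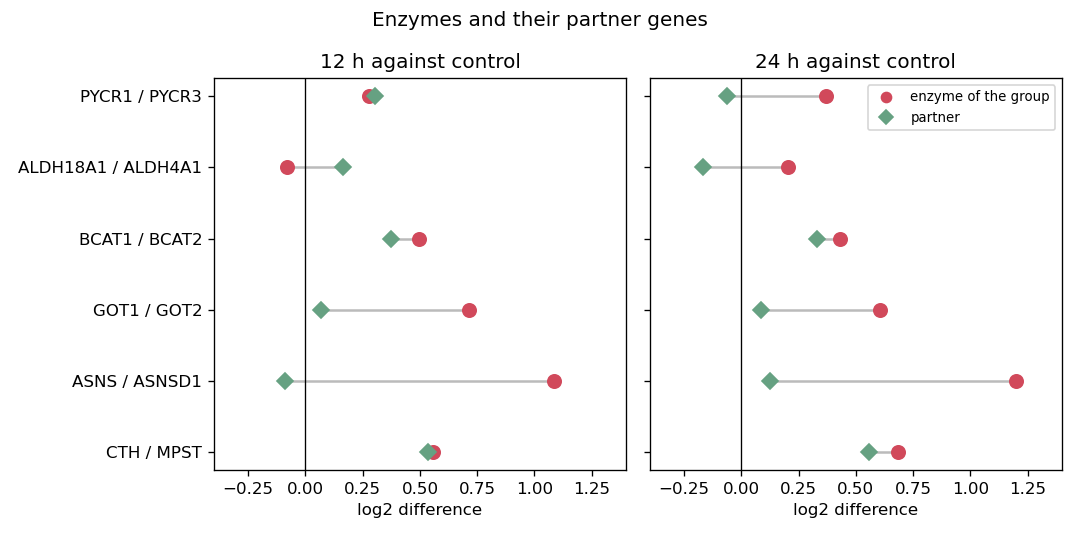
Log2 difference from the control at 12 h and 24 h for 6 enzymes (red circles) and their measured partners (green diamonds). GOT1 and ASNS lie far to the right of GOT2 and ASNSD1 at both times, and BCAT1 lies close to BCAT2.

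The 7 neighbouring gene lists around these routes held 125 genes, of which 103 were measured. At 12 h 72 of the 103 were higher and at 24 h 59, where 50.2% and 48.8% of all measured genes were. The medians were 0.11 and 0.09. Past 2-fold were 3 genes at 12 h and 4 at 24 h, all higher, where 0.445% and 0.591% of all measured genes were. The counts of each list below stand beside the same shares over all genes. Of the list genes past 2-fold, 3 belong to the ATF4 list and are no enzymes of amino acid metabolism.

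In proline, ornithine and glutamate metabolism 10 of 13 measured genes were higher at 12 h and 5 at 24 h, with medians of 0.17 and -0.03. ARG2, the mitochondrial arginase that makes ornithine, was the one gene past 2-fold. It read 587, 964 and 1271, or 0.72 and 1.11, and its second probe set gave 0.68 and 0.55. In methionine, transsulfuration and cysteine metabolism 16 of 20 were higher at 12 h and 13 at 24 h, with medians of 0.10 and 0.14 and none past 2-fold. By the mean size of both differences the gene that led this list was GCLM, a subunit of the ligase that starts glutathione synthesis from cysteine, at 0.60 and 0.51.

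In asparagine, aspartate, alanine and arginine metabolism 6 of 13 were higher at 12 h and 7 at 24 h, with medians of -0.01 and 0.08. By the same measure ASL, the argininosuccinate lyase, led at 0.62 and 0.64. In branched-chain breakdown 13 of 18 were higher at 12 h and 8 at 24 h, with medians of 0.09 and -0.03, and ACADSB, an acyl-CoA dehydrogenase, led by that measure at -0.43 and -0.44. In phosphoenolpyruvate, oxaloacetate and malate metabolism 8 of 14 were higher at 12 h and 7 at 24 h, with medians of 0.08 and 0.00. ENO3, an enolase, was at 0.58 and 0.94 there, from a dim control signal of 86.8. None of the genes in these 3 lists passed 2-fold.

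The tRNA synthetases that charge the products were higher in 7 of 9 cases at 12 h and 6 of 9 at 24 h, with medians of 0.23 and 0.27. AARS1, the cytosolic alanyl-tRNA synthetase, led by the mean size of both, at 0.68 and 0.40, although at 24 h CARS1, the cysteinyl-tRNA synthetase, was higher at 0.54. Among ATF4, its upstream kinases and other factors linked to it, 12 of 16 were higher at 12 h and 13 at 24 h, with medians of 0.26 and 0.29. ATF4 itself read 11494, 18391 and 19404, or 0.68 and 0.76. DDIT3, the stress factor CHOP, was at 1.67 and 1.76, TRIB3, a pseudokinase, at 1.19 and 1.06 (0.95 and 0.87 on a second probe set), and NUPR1, a stress-induced chromatin protein, at 1.36 and 1.30. None of the upstream kinases in this list passed 2-fold.

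**Figure D5:**
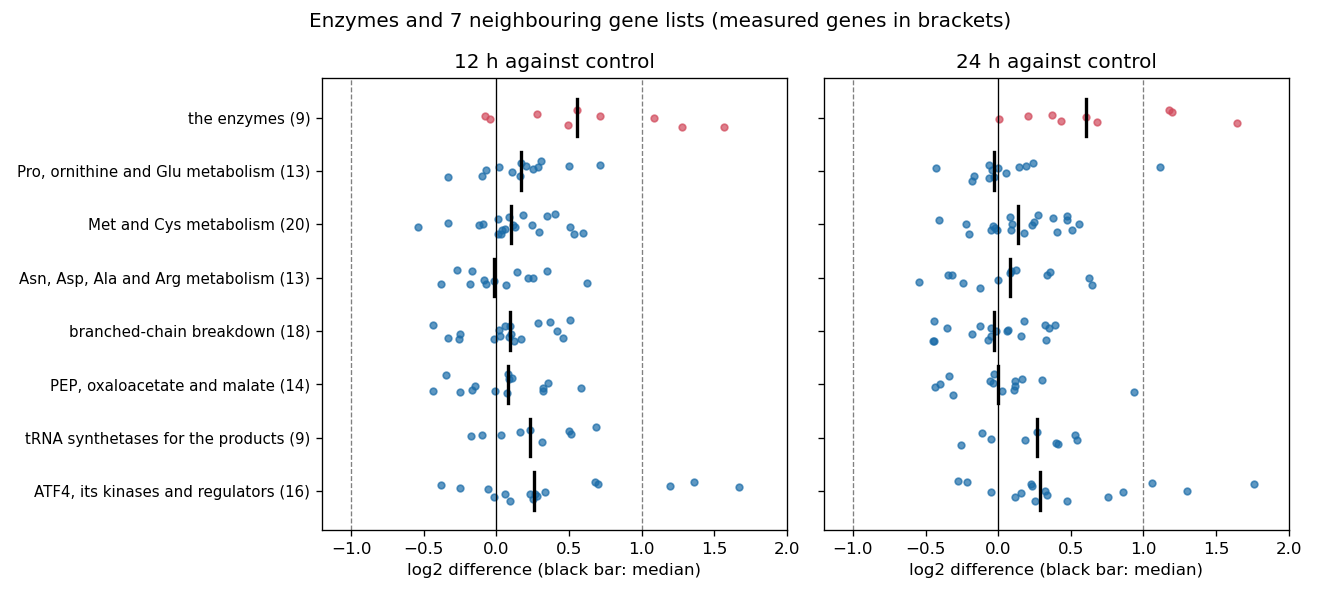
Log2 difference from the control of each measured gene at 12 h and 24 h, for the 9 enzymes (red) and 7 neighbouring lists (blue), with black bars at the medians and dashed lines at 2-fold either way. The enzyme median lies at 0.56 and 0.60, and those of the 7 lists lie between -0.03 and 0.29; the vertical scatter within a list carries no meaning.

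Genes most like the 3 strongest enzymes were ranked by the Euclidean distance between pairs of log2 differences, at 12 h and at 24 h, over 11307 other genes above the floor on all 3 arrays. Nearest to ASNS were TBC1D19 at a distance of 0.07, NIBAN1 at 0.08, S100P at 0.10, EEFSEC at 0.10 and HTRA3 at 0.11. Nearest to the brightest CBS probe set were DDIT3 at 0.16, PACSIN3 at 0.17, GDF15 at 0.22, SLFN5 at 0.26 and HMOX1 at 0.39. Nearest to PCK2 were PXK at 0.06, HTRA3, CHAC1 and LINC02806 at 0.09 each and KLHDC7B at 0.11. HTRA3 came from a control signal of 64, just above the floor, and EEFSEC and S100P from dim ones of 77.5 and 94. Neighbours with more than 1 probe set, such as SLFN5 with 6 and PXK with 4, were read from their brightest only. This likeness rests on 2 differences that share the control array.

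As checks of the arrays, 10 of 11 markers of a lung epithelial line were measured, and NKX2-1, a lung lineage factor, was below the floor on all 3. EPCAM read 13033, 13754 and 13538 and CDH1 20421, 20218 and 20492 on the control, 12 h and 24 h arrays. Of the 10, 7 were lower at 12 h and 6 at 24 h, with KRT19 at -0.54 and -0.60, SFTPB at -0.36 and -0.34 and CLDN4 at 0.69 and 0.79, and NAPSA passed the floor at 24 h only. A list of 10 blood cell markers had 9 on the arrays, with summed signals between 429 and 453. The 3 measured were CSF1R, ITGAM and the red-cell gene HBB, and PTPRC and CD3E were below the floor. Markers of fibroblasts and endothelium, 10 in all, had signals adding up to 1886 on the control array, 1598 after 12 h and 1275 after 24 h, with DCN and LUM below the floor. The 3 measured were COL1A1 at -0.08 and -0.56, COL3A1 at -0.43 and -0.58 and PECAM1 at -0.48 and -0.62. For ACTB the signal of the 3′ probe set over the 5′ one was 4.95 on the control array, 5.38 after 12 h and 6.55 after 24 h, and for GAPDH it was 1.21, 1.25 and 1.24. The part of these values in the enzyme differences was not tested. In RNA of whole cultures, more cells with a transcript and more transcript per cell cannot be told apart.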

How the data were processed

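The deposited values were linear signal intensity per probe set, made by the authors with MAS5 per the submitters' processing notes; its version and settings are not given in the sources used here, nor is a genome build. With 2% trimmed at both ends, the arrays had equal means of 500.1, and the values were used unscaled. The platform annotation named 41097 probe sets by 1 gene, of which 41043 matched RefSeq through Entrez identifiers with no symbol changed. A gene took its probe set with the highest mean signal over the 3 arrays, and every single-gene probe set of the 10 enzymes was read as well. A floor at the 50th percentile of all signals, 61.4, was applied before log2. Values are log2 differences between pairs of arrays, with 2-fold as the size threshold and no test. The enzymes, gene lists and rules were chosen with earlier results of these data known. Genes named are the 10 enzymes, fixed partners, ATF4, DDIT3, the list genes past 2-fold or else the one in its list with the largest mean absolute difference over 12 h and 24 h, and the 5 genes nearest to ASNS, CBS and PCK2. Motifs were searched in RefSeq promoters. The 8 alternatives cover scaling, floor and choice of probe set, and 1 more was added after seeing the data. The steps were run on simulated data with planted folds, given alike to all probe sets of genes well above the floor. That run did not cover planted folds in dim signals or in probe sets that disagree. Python 3.11.15, pandas 2.3.3 and limma 3.58.1 (cyclic loess) were used.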

Additional observations from a re-analysis of the deposited data

Results flagged for a closer look

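Among the genes named, 5 lay on opposite sides of the control at 12 h and 24 h, and with 1 array a group the difference was not tested. ALDH18A1 went from -0.08 to 0.21, a difference of 0.28 between 24 h and 12 h, and OAT went from -0.044 to 0.0063, a difference of 0.051. Among the partner genes, ALDH4A1 went from 0.16 to -0.17, a difference of -0.33, PYCR3 from 0.30 to -0.06, a difference of -0.37, and ASNSD1 from -0.09 to 0.12, a difference of 0.21. All 5 lay within the central 95% of measured genes at both times.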

How the results depend on the processing

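No paired analysis was possible because each group held 1 array, and for the same reason no array could be left out. Of 240 values of the enzymes under the 9 alternatives, 230 kept their side of 2-fold, and 5 changed sign. The other 10 were those of ASNS and CBS under another choice of probe set, where the ASNS values are or take in lower bounds. Genes with 1 probe set cannot change value under such a choice, and values far from 2-fold had little room to cross it. The 230 is thus no measure of stability. With the median over probe sets, 1 enzyme was 2-fold higher at 12 h and 1 at 24 h instead of 3, and the ATF4 list had a 24 h median of 0.13 instead of 0.29. With transcript-specific probe sets the same counts were 1 and 1, over 8 enzymes, since PYCR1 has none; their medians were 0.34 and 0.32, and -0.031 instead of 0.082 for 24 h against 12 h. That setting also gave medians of -0.13 and -0.033 for asparagine, aspartate, alanine and arginine metabolism at 12 h and 24 h. For phosphoenolpyruvate, oxaloacetate and malate metabolism they were -0.088 and -0.20. It left 9525 measured genes instead of 12351, so these medians can rest on fewer genes. Under it 2 list genes were 2-fold higher at 24 h instead of 4, since NUPR1 has no such probe set and ARG2 was at 0.55. With CBS read from the probe set brightest in the control, an alternative chosen after seeing the data, 2 enzymes were 2-fold higher at each time. No alternative of scaling or floor changed an enzyme's side of 2-fold.

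The floor sets the counts over all genes, since dim probe sets then add calls. With the 25th percentile, 718 genes were 2-fold higher and 813 lower at 12 h, 748 and 894 at 24 h, and 715 and 774 for 24 h against 12 h. With the 65th percentile the counts were 26 and 18, 35 and 28, and 5 and 1. With no floor and a pseudocount of 1 they were 1622 and 1789, 1639 and 1877, and 1715 and 1753. The main counts were 55 and 54, 73 and 79, and 18 and 22. Neighbouring list genes 2-fold higher and lower were 5 and 3 at 12 h, 7 and 2 at 24 h and 2 and 2 between the treated arrays with the 25th percentile, and 6 and 4, 9 and 3, and 5 and 4 with no floor. The median of asparagine, aspartate, alanine and arginine metabolism at 12 h turned from -0.01 to 0.11 with the 25th percentile and to 0.10 with no floor, and that of phosphoenolpyruvate, oxaloacetate and malate metabolism at 24 h to 0.11 with no floor. The cause of the shifts in these medians was not tested. Signals near the floor, such as the second ASNS probe set, allow only bounds.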
